A study of Mus musculus with 32 samples.

Results

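Extraembryonic endoderm-like cells made by a pulse of GATA6 were compared with the uninduced mouse ES (mES) cells they came from, using the end points of a bulk RNA-seq time course. The comparison used 8 of the 32 samples of the series, 4 replicates at 0 h and 4 at 96 h, and 15227 of the 54233 genes in the table passed the filter on low values and were tested. All samples came from the KH2 mES cell line, a C57BL/6 line per the labels, and all carried a single copy of a transgene in which a TET-responsive element drives GATA6-FLAG and DsRed2. Cells at 0 h were kept without doxycycline (Dox) in 2i medium, which holds LIF and inhibitors of MEK and GSK3. Cells at 96 h had spent 12 h in medium with 15% serum, LIF and 1 µg/ml Dox and the remaining time in the same medium without Dox. Dox, serum and the removal of the inhibitors thus changed together between the groups, and their effects cannot be told apart here. The study states that replicate experiments were independent, and the labels name no cultures. The p-values therefore measure the spread between samples of the same time point, pooled over all 32 samples of the series. They treat the 4 samples of a group as separate.

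Primitive endoderm (PrE) is the layer of the blastocyst that lines the cavity, next to the epiblast (Epi) from which mES cells are derived. GATA6 drives PrE identity and acts upstream of GATA4, SOX17 and SOX7, whereas NANOG, SOX2 and OCT4 (encoded by *Pou5f1*) hold cells in the Epi state. PrE later gives rise to visceral endoderm, a polarized epithelium that absorbs nutrients by endocytosis and secretes serum proteins, and to parietal endoderm, migratory cells that lay down Reichert's membrane, a thick basement membrane rich in laminin and type IV collagen.

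Values are normalized counts, the reads on a gene divided by the size factor of its library, recovered from the deposited log2 values. Library depth was 3914631 to 11035765 reads on genes at 0 h and 7292000 to 9659981 at 96 h. In both groups replicates 1 and 2 differed from replicates 3 and 4. Per degree of freedom, the chi-square of read counts was 1.64 to 6.34 for libraries within these sets and 11.4 to 19 between them at 0 h, and 1.3 to 1.8 within and 6.61 to 7.81 between them at 96 h. Where this split touches a gene, the values of the sets are given. Bulk RNA cannot tell fewer cells of a type from less RNA per cell.

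The row for the transgene was at 0 in every library at 0 h. At 96 h, long after Dox was removed, it was at 115, 55.7, 113 and 178 normalized counts. At 2 h, in the presence of Dox, it was at 618 ± 110 (SD, n = 4). The row for *Gata6* was at 0, 0.68, 0.81 and 0 normalized counts at 0 h, which is 2 reads over all libraries. In the 96 h libraries it was at 1887, 1995, 2169 and 2219. Both rows followed the labels in all 8 libraries. The transgene holds only coding sequence, and the methods estimate its level from reads on the coding part of the last exon minus those on the 3′ UTR. They do not say whether the deposited rows were made in that way, so no fold change is given for the transgene. For the same reason the *Gata6* row may hold reads of the transgene.

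Genes were tested with limma and called at a Benjamini-Hochberg false discovery rate (FDR) below 0.1 with a change of at least 4-fold, or 2 on the log2 scale. At this threshold 1413 genes (9.28% of those tested) were higher at 96 h and 1567 (10.3%) were lower. At an FDR below 0.1 and any size of change, 5779 genes (38.0%) were higher and 5858 (38.5%) lower. The median log2 fold change of all genes tested was -0.03, and the shares and the median of each gene list below are read against these values. Rises, falls and values in parentheses without a unit are log2 fold changes, 96 h over 0 h, with the SE where given. Of the genes called higher, 1411 did not overlap between the groups, and of those called lower, 1547 did not. These genes were selected by their difference in the same libraries, so the counts describe the calls and add no support to them.

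Rises were larger than falls and reached higher levels. A change of at least 16-fold was seen in 500 genes that rose and 412 that fell, one of at least 256-fold in 60 and 4, and one of at least 1024-fold in 12 and 0. The median level in the group where the gene was high was 207 normalized counts for genes called higher and 71.6 for genes called lower. A mean of at least 10000 was reached by 25 of the genes called higher at 96 h, and by 3 of the genes called lower at 0 h. At 0 h, 343 of the 1413 genes called higher had at most 3 reads in every library, and 11 of these exceeded a mean of 1000 at 96 h, among them *Gata6*, *Pth1r*, *Foxq1*, *Glipr1* and *Hs3st1*. Conversely, 500 of the 1567 genes called lower had at most 3 reads in every library at 96 h, and none of them had reached 1000 at 0 h.

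**Figure D1:**
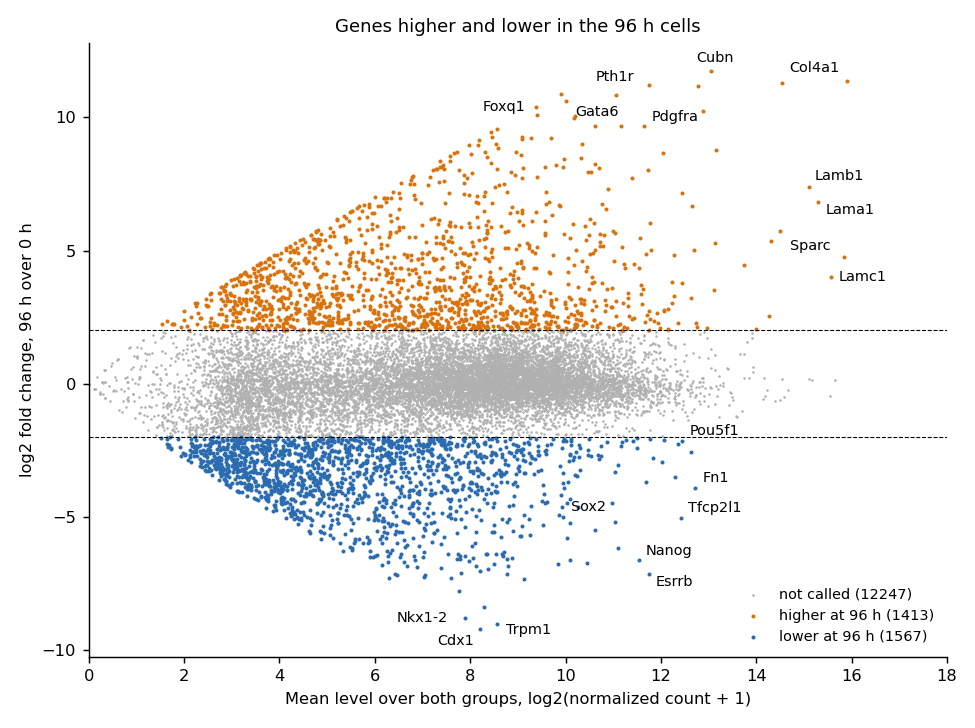
Each point is 1 of the 15227 genes tested, with its mean over both groups as log2(normalized count + 1) on the x axis and its log2 fold change, 96 h over 0 h, on the y axis. Orange points are the 1413 genes called higher, blue points the 1567 called lower, and dashed lines mark the 4-fold threshold. *Col4a1*, *Sparc* and the laminin genes combine a large rise with a high level, at the upper right.

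The largest rise was that of *Cubn* (ENSMUSG00000026726, a protein-coding gene at chr2:13276338-13491813 in GRCm38), which encodes cubilin, the ligand-binding part of the receptor that takes up vitamin B12 and apolipoproteins at the apical surface. It was at 2.76, 4.08, 3.22 and 5.67 normalized counts at 0 h and at 14187, 13268, 21252 and 19268 at 96 h. The log2 fold change was 11.76 ± 0.35 (SE, limma adjusted p = 1.06e-22). *Col4a1* and *Col4a2*, the α1 and α2 chains of type IV collagen, came next. *Col4a1* (ENSMUSG00000031502) was at 60.7, 47.6, 41.9 and 34 at 0 h and at 112699, 105005, 141843 and 131869 at 96 h (11.37 ± 0.19, adjusted p = 3.03e-29). *Col4a2* (ENSMUSG00000031503) moved from 13.8, 20.4, 21 and 17 to 42105, 38554, 56684 and 53221, a log2 fold change of 11.29 ± 0.24 (adjusted p = 2.62e-26). These genes lie head to head on chromosome 8, *Col4a1* on the minus strand at chr8:11198423-11312826 and *Col4a2* on the plus strand at chr8:11312805-11449287, so that their annotated starts overlap by 22 bases. Whether counting used the strand is not stated in the sources used here.

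The other genes among the 10 largest rises were *Pth1r* (11.23), *Srgn* (11.20), *Glipr1* (10.86), *Hs3st1* (10.84), *Gata6* (10.61), *Foxq1* (10.39) and *Dab2* (10.26), all as log2 fold changes. *Pth1r*, the receptor for parathyroid hormone and its related peptide and an early marker of parietal endoderm, was at 1.38, 1.36, 1.61 and 3.78 at 0 h and varied little at 96 h, with 6899, 7002, 6994 and 6821. *Srgn* encodes serglycin, a core protein of secreted and granule proteoglycans, and *Hs3st1* a sulfotransferase that modifies heparan sulfate. *Glipr1* and *Foxq1* had 0 reads in all libraries at 0 h and were at least 535-fold and 375-fold higher at 96 h than the floor of 3 reads per library.

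The largest falls were led by *Cdx1*, a caudal-type homeobox factor, which was at 603, 553, 580 and 620 at 0 h and at 0 in all 4 libraries at 96 h, at least 182-fold lower. *Trpm1*, a cation channel gene, fell from 814, 748, 707 and 746 to 1.06, 1.05, 0 and 0. *Nkx1-2*, a homeobox gene of the epiblast and tail bud, was at 604 and 671 in replicates 1 and 2 and at 314 and 310 in replicates 3 and 4 at 0 h, and at 0 in every library at 96 h. *Osm*, which encodes the cytokine oncostatin M, was also at 0 in every library at 96 h, at least 47.9-fold lower. Other genes with large falls were *Accsl* (-8.38), *Dmgdh* (-7.79), *Mcf2* (-7.33), *Slit2* (-7.30) and *Rerg* (-7.26), again as log2 fold changes. At 2 h, *Cdx1*, *Trpm1*, *Nkx1-2* and *Osm* had means of 221, 278, 28.6 and 28.1 normalized counts, each below every 0 h library of its gene.

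Of the 14 endoderm transcription factors tested, 8 were called higher and 1 lower, with a median log2 fold change of 6.38. *Gata4* was at 19.3, 22.4, 39.5 and 22.7 at 0 h and at 6238, 6188, 7393 and 7327 at 96 h (8.02 ± 0.30, adjusted p = 2.69e-20). *Sox17* moved from 6.9, 1.36, 5.64 and 5.67 to 1379, 1378, 1562 and 1726, and its relative *Sox7* from 5.52, 8.15, 1.61 and 5.67 to 1791, 1804, 2262 and 2142. Both are SOX factors of extraembryonic endoderm, and in neither did the groups overlap. *Foxa2*, a forkhead factor shared with definitive endoderm, rose by 8.69 to a mean of 630 ± 105 (SD, n = 4). *Hnf4a*, a regulator of visceral endoderm, rose by 5.55 to a mean of 335 ± 24.5. *Foxa1* did not pass the test, with a mean of 0.57 at 0 h and 1.71 at 96 h. *Prdm1* was the member called lower, with a mean of 36.3 ± 6.5 at 0 h and 6.17 ± 2.48 at 96 h. Its call was lost with a pseudocount of 5 (-1.90).

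Pluripotency factors changed unequally. Of the 17 naive and core factors, 10 were called lower, 0 higher, and 13 were lower and 3 higher at any size, with a median log2 fold change of -2.68. *Esrrb*, a nuclear receptor of the naive state, was at 5869, 6451, 7383 and 7576 at 0 h and at 66.9, 58.9, 37.7 and 34 at 96 h (-7.13 ± 0.16, adjusted p = 1.26e-25). *Nanog* fell from 5002, 4657, 6803 and 7037 to 73.2, 81, 42.7 and 43.5 (-6.62 ± 0.22, adjusted p = 2.09e-21). In both genes all libraries at 96 h lay far below all libraries at 0 h. *Prdm14* (-7.12), *Nr5a2* (-6.48), *Nr0b1* (-6.38), *Klf2* (-5.29), *Tfcp2l1* (-5.02) and *Sox2* (-4.99) fell by at least 16-fold, as log2 fold changes.

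*Pou5f1* was the exception among the core factors. It was at 10821, 10038, 8102 and 7457 at 0 h and at 2319, 2294, 1769 and 1824 at 96 h (-2.14 ± 0.10, adjusted p = 6.01e-18). Its mean at 96 h was 2051 ± 295 (SD, n = 4). Per kb of exon this was 912 ± 131, beside 29.3 ± 6.81 for *Sox2* and 26.8 ± 8.87 for *Nanog*. At 48 h *Pou5f1* had still been at 6166 ± 293 normalized counts, so most of its fall came in the last interval (96 h against 48 h, -1.60, limma adjusted p = 1.83e-13). Several factors of the list were not lower at all. *Sall4* was at 1651, 1813, 1491 and 1445 at 0 h and at 3071, 3008, 3242 and 3134 at 96 h (0.97, adjusted p = 1.66e-10), and *Klf5* and *Mycn* were higher by 0.99 and 1.39. *Tbx3* did not pass the test (0.17, adjusted p = 0.357).

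**Figure D2:**
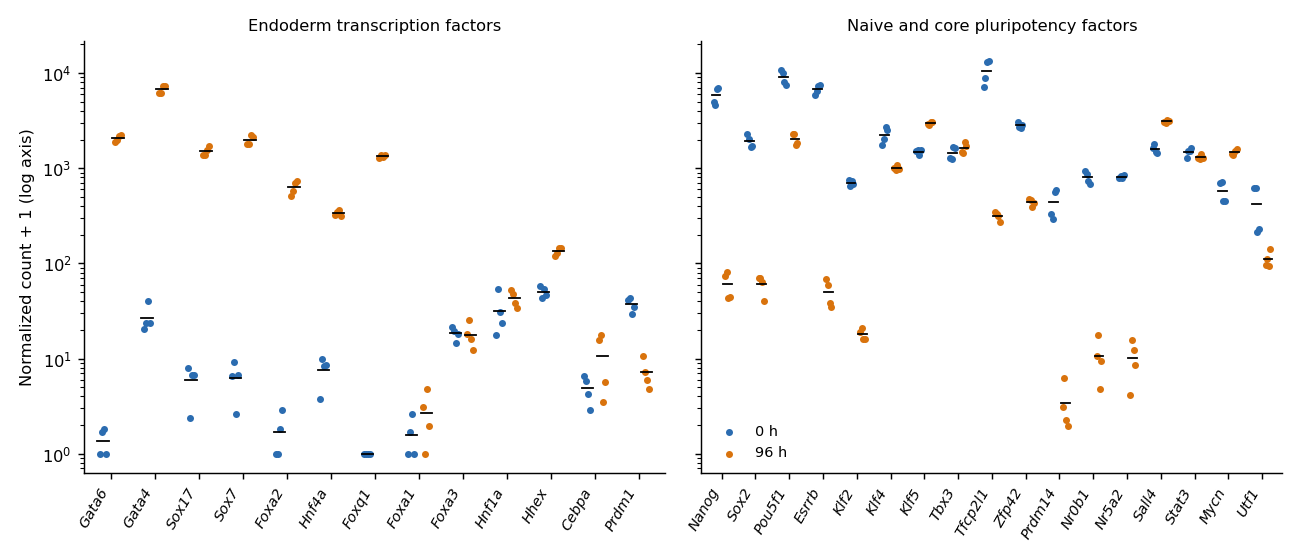
Each point is 1 library and each bar the mean of 4, with the normalized count + 1 on a log axis, for 13 of the endoderm factors tested (left) and the 17 naive and core pluripotency factors (right). Blue points are 0 h and orange points 96 h. *Pou5f1*, *Klf4*, *Klf5*, *Tbx3*, *Sall4*, *Stat3* and *Mycn* stay near or above 1000 normalized counts at 96 h, whereas *Nanog*, *Sox2*, *Esrrb* and *Klf2* lie below 100.

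Among 18 other genes associated with pluripotency, 9 were called lower and 0 higher (16 lower and 1 higher at any size, median -1.79). *Cobl*, an actin nucleator, and *Morc1*, a repressor of transposable elements, fell by 6.72 and 5.78. *Fgf4* and *Tdgf1*, which encode an FGF ligand and the NODAL co-receptor CRIPTO, fell by 4.94 and 4.48. *Lin28a* was the member higher at any size, with 3474 and 3093 in replicates 1 and 2 but 775 and 814 in replicates 3 and 4 at 0 h, and 6099, 6093, 5013 and 5021 at 96 h. It was called higher in replicates 3 and 4 alone and when 0 h replicate 1 or 2 was left out. The formative and primed epiblast genes did not rise as a group. Of 14 tested, 4 were called lower (*Nkx1-2*, *Foxd3*, *Cdh2* and *Sox11*), 0 higher, and 10 were lower and 2 higher at any size. *Sox11* lost its call without 0 h replicate 1, 0 h replicate 2 or 96 h replicate 1, with log2 fold changes of -1.70, -1.72 and -1.83. *Otx2* was at 15.9 to 24.2 at 96 h and 23.8 to 29 at 0 h, which did not pass the test, and *Fgf5* was below the filter with at most 4.14 normalized counts in any of the 8 libraries. Counts of 0 at the 4-fold threshold in these lists were also 0 with limma-voom on the recovered reads.

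Sequence upstream of the start was available for 10481 of the genes tested, 1037 of them called higher and 1031 called lower. The 250 bases before each start were searched on both strands. The letters AGATAA were used for GATA factors, ACAATG for SOX factors and ATGCAAAT for OCT factors, and none of these contains another. GATA letters were present in 7.14% of promoters of genes called higher, 6.5% of those called lower, 5.82% of all genes tested and 10.3% of all 27025 promoters in the table. The shares for the SOX letters were 6.36%, 6.89%, 5.78% and 11%. OCT letters were present in 1.16% of promoters of genes called higher, 2.62% of those called lower, 1.36% of all tested and 1.61% of all promoters. A match is a description of letters in this window and not evidence of binding. Promoters of 3 genes are shown as examples, chosen after their values were seen, of which *Fgf3* was called higher and *Nanog* and *Aldh1a2* lower. They are the 250 bases before the RefSeq start in GRCm38.p6, 5′ to 3′ on the strand of the gene, with the matched letters in capitals on either strand. *Fgf3* holds the GATA letters on the opposite strand, *Nanog* the SOX letters on the gene's strand, and *Aldh1a2* the OCT letters on the gene's strand.
Fgf3 (chr7:144838362-144838611, plus strand): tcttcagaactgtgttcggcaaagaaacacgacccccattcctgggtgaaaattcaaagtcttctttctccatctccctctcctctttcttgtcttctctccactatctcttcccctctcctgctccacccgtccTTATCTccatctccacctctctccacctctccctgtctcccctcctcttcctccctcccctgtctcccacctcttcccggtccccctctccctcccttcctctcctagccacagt
Nanog (chr6:122707239-122707488, plus strand): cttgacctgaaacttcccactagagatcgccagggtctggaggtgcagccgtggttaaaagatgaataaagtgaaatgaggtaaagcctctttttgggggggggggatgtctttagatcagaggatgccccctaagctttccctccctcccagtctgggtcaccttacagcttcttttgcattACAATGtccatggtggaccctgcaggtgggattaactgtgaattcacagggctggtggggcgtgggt
Aldh1a2 (chr9:71215539-71215788, plus strand): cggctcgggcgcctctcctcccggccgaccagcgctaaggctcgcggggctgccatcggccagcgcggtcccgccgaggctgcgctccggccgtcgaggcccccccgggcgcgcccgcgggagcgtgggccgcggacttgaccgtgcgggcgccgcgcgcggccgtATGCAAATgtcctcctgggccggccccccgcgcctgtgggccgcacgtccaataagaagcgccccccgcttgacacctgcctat

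Genes of parietal endoderm gave the highest median of all lists. Of 15 tested, 13 were called higher and 0 lower, 14 were higher and 1 lower at any size, and the median log2 fold change was 6.84. The list shares members, *Col4a1* and *Sparc* among them, with the list of basement membrane genes described below, so these lists are not independent. *Sparc*, a calcium-binding matrix glycoprotein, was at 3335, 3533, 5101 and 5039 at 0 h and at 103641, 100731, 124296 and 124264 at 96 h (4.76 ± 0.22, adjusted p = 4.62e-18). *Plat*, tissue plasminogen activator, rose from 2.76, 6.79, 5.64 and 13.2 to 2428, 2341, 2733 and 2732. *Thbd*, thrombomodulin, rose from a mean of 3.86 to 632 ± 70.8 (SD, n = 4). All libraries of the later group were above those of the earlier group in each of these genes. *Snai1*, a repressor that acts in epithelial to mesenchymal transitions, rose by 4.89, and *Tfpi*, an inhibitor of coagulation, by 4.82. *Vim*, the intermediate filament of mesenchymal cells, was the member that was lower at any size (-0.51, adjusted p = 0.0309), and its direction differed between the replicate sets, with -1.36 in replicates 1 and 2 and 0.34 in replicates 3 and 4.

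Laminin is a trimer of α, β and γ chains. The chains of laminin-111 rose together, while the α chain genes *Lama3* and *Lama5* fell. *Lama1* was at 519, 727, 787 and 756 at 0 h and at 69235, 63783, 98823 and 88991 at 96 h (6.84 ± 0.22, adjusted p = 9.57e-22). *Lamb1* moved from 428, 444, 393 and 425 to 65082, 63315, 78655 and 74480, and *Lamc1* from 3521, 4909, 7494 and 7891 to 86326, 82690, 102996 and 92423. In contrast *Lama3* fell from 460, 653, 707 and 752 to 11.7, 9.47, 2.51 and 5.67 (-6.41 ± 0.26, adjusted p = 2.24e-19). *Lama5* fell from 1121, 1492, 2420 and 2582 to 218, 218, 272 and 249 (-2.91). Per kb of exon, the mean at 96 h was 8285 for *Lama1*, 7097 for *Lamb1* and 11014 for *Lamc1*, and 16460 for *Col4a1* against 7198 for *Col4a2*. *Col18a1*, the collagen that gives endostatin, was the other member called lower (-3.34).

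Of the 24 basement membrane components and assembly factors tested, 15 were called higher and 3 lower, with a median of 3.18. *Hspg2*, the heparan sulfate proteoglycan perlecan, rose by 3.21, and its libraries at 96 h were at 8516 and 7571 in replicates 1 and 2 and at 15497 and 14079 in replicates 3 and 4. *Nid1*, which links laminin to collagen, rose by 2.14 and was called in replicates 1 and 2 only, since its 0 h libraries were at 1406 and 1810 against 3908 and 3847. Enzymes and chaperones that act on collagen rose with it. *Serpinh1*, the collagen chaperone HSP47, was at 948, 1003, 740 and 748 at 0 h and at 43667, 42536, 46729 and 48973 at 96 h (5.74). Prolyl hydroxylases *P4ha1* and *P4ha2* rose by 6.66 and 8.65, lysyl hydroxylases *Plod1*, *Plod2* and *Plod3* by 2.999, 5.28 and 3.15, and *Pxdn*, the peroxidase that crosslinks type IV collagen, by 6.58.

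These genes took a large part of the normalized counts at 96 h. The 29 genes of the list held 0.242 to 0.426% of all normalized counts in the libraries at 0 h and 6.4 to 8.12% at 96 h, a ratio of the means of 20.9. *Col4a1*, *Col4a2*, *Lama1*, *Lamb1*, *Lamc1* and *Sparc* alone held 0.103 to 0.192% at 0 h and 5.14 to 6.59% at 96 h. *Col4a1* held the largest share of normalized counts of any gene in the 96 h cells (1.36%). It was followed by *Sparc* (1.26%), *Lamc1* (1.01%), *Lama1* (0.889%) and *Lamb1* (0.781%). Shares are not scaled for gene length, so their order need not be that of transcript numbers. At 0 h the first places were held by *Hsp90ab1* (0.743%) and the mitochondrial *COX1* (0.658%). All genes called higher together held 1.68 to 1.98% at 0 h and 19.3 to 21.6% at 96 h, and all genes called lower 6.46 to 7.4% and 0.624 to 0.685%.

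**Figure D3:**
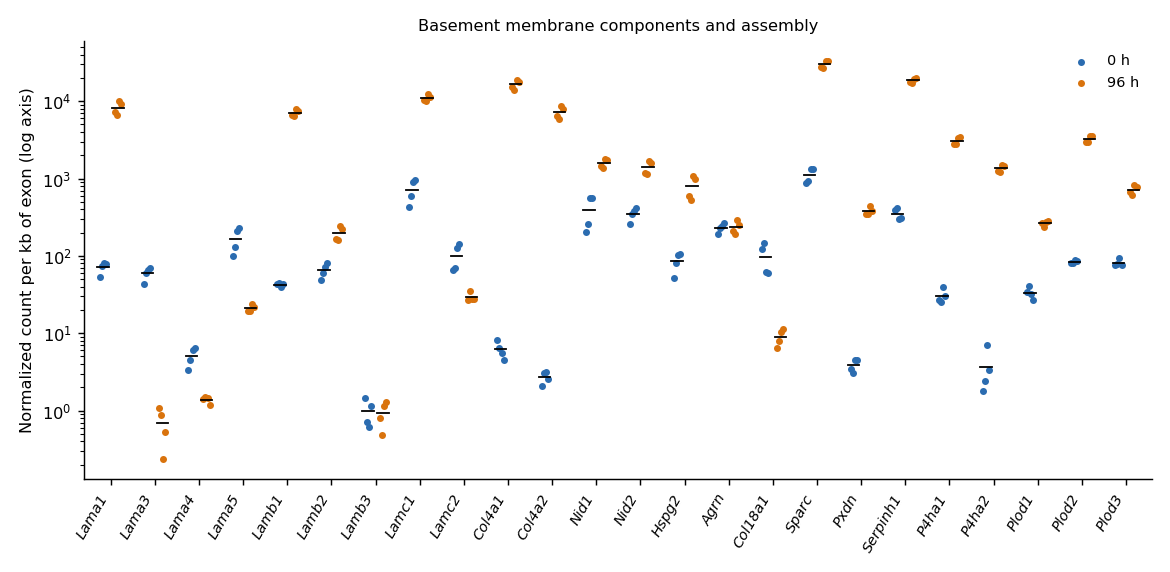
Each point is 1 library and each bar the mean of 4, with the normalized count per kb of exon on a log axis, for the 24 basement membrane components and assembly factors tested. Blue points are 0 h and orange points 96 h. *Lama1*, *Lamb1*, *Lamc1*, *Col4a1*, *Col4a2*, *Sparc* and *Serpinh1* are the 7 highest genes at 96 h, whereas *Lama3*, *Lama5* and *Col18a1* fall.

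Genes of folding and transport in the ER rose broadly but by less. Of 34 tested, 33 were higher and 0 lower at any size, 11 were called higher, and the median log2 fold change was 1.47. Against 2 h instead of 0 h, 7 were called. *Kdelr3*, a receptor that returns proteins to the ER, rose most, from 73.2, 72.7, 95.1 and 85 to 3101, 3140, 3423 and 3462 (5.32 ± 0.20, adjusted p = 1.48e-20). *Creb3l1* and *Creb3l2*, transcription factors of secretory cells, rose by 3.87 and 3.83. *P4hb*, which encodes a disulfide isomerase that is also the β subunit of prolyl hydroxylase, rose from 5856 ± 222 to 33751 ± 432 (SD, n = 4). *Xbp1* and *Atf6*, which encode transcription factors of the unfolded protein response, rose by 2.41 and 2.32. *Calr* rose by 2.06, a call that was lost without 0 h replicate 1 (1.998). The list held 0.844 to 0.902% of normalized counts at 0 h and 2.38 to 2.56% at 96 h.

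Lysosomal genes showed a smaller shift. Of 28 tested, 22 were higher and 4 lower at any size, and 5 were called higher, namely *Ctsh*, *Ctsl*, *Lipa*, *Ctsz* and *Naglu* (median 1.05). *Ctsl*, a cysteine protease, was at 992, 943, 993 and 961 at 0 h and at 37850, 38231, 40247 and 42885 at 96 h (5.35 ± 0.08, adjusted p = 8.28e-30). *Ctsh* had 1 read over the 0 h libraries and a mean of 307 ± 17.2 at 96 h.

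Markers of visceral endoderm split into receptors, which rose, and secreted proteins, of which many were barely detected. Of 13 apical endocytic and brush border genes tested, 9 were called higher and 1 lower (median 2.65). *Cubn*, its partner *Amn* (amnionless) and *Lrp2* (megalin) form the receptor system for proteins at the apical membrane, and *Dab2* is its adaptor. *Lrp2* was at 17.9, 33.3, 61.3 and 68 at 0 h and at 15489, 14004, 22474 and 20663 at 96 h (8.77 ± 0.46, adjusted p = 8.85e-17). *Amn* rose from 0, 0.68, 2.42 and 1.89 to 392, 420, 497 and 540. *Dab2* rose from 11, 4.76, 14.5 and 20.8 to 13984, 14173, 16624 and 15914. *Myo7a* and *Folr1* rose by 3.11 and 2.65, and *Fcgrt*, the neonatal Fc receptor, fell by 2.59 on the log2 scale.

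Only 10 of 21 secreted proteins of visceral endoderm passed the filter. The rest, *Afp*, *Alb*, *Apoa1*, *Apoa4*, *Apob*, *Apoc2*, *Apoc3*, *Trf*, *Ambp*, *Fga* and *Fgg*, did not. *Afp*, α-fetoprotein, was at 2.12, 6.31, 2.51 and 5.67 normalized counts at 96 h and *Alb*, albumin, had 0 reads in all of these libraries. Of those tested, 6 were called higher and 3 lower. *Ttr*, transthyretin, had 0 reads at 0 h and was at 49.9, 45.2, 57.7 and 57.7 at 96 h, at least 14.8-fold above the floor. *Fgb*, the fibrinogen β chain, was likewise at 0 in each 0 h library and had a mean of 48.4 ± 12.8 at 96 h. *Spink1* (8.08), *Mttp* (4.23), *Rbp4* (3.44) and *Apom* (2.61) were the others called higher, as log2 fold changes. *Apoa2*, *Apoc1* and *Apoe* were called lower. *Apoe* was at 6072, 5145, 3740 and 3653 at 0 h and at 1286, 1278, 904 and 963 at 96 h (-2.05). Its call was lost without 0 h replicate 1 or 2 or 96 h replicate 3 or 4, with log2 fold changes of -1.915 to -1.995. *Apoe* and *Apoc1* are neighbors, and both had been higher at 48 h, with means of 5558 and 685. Genes of the anterior visceral endoderm were not raised as a group, with 1 of 9 called higher and 3 lower (median -0.88). Against 2 h the same numbers were called, and the median was 0.54. *Dkk1*, an inhibitor of WNT signaling, rose from 11, 6.12, 13.7 and 13.2 to 965, 1005, 1014 and 1014, whereas *Cer1* had 0 reads in all 8 libraries and *Lhx1* at most 3 in each.

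Levels of defining markers were summed for each cell type. The 6 PrE markers summed to 44.8 to 69.3 normalized counts at 0 h and 31782 to 36497 at 96 h, and all 6 were called higher. The 6 ES cell markers summed to 16791 to 20449 and 552 to 705, and all 6 were called lower. Of the 6 parietal markers 5 were called higher, with sums of 5797 to 6309 and 111966 to 136755, of which most was *Sparc*. The 8 visceral markers summed to 5.52 to 16.3 and 14448 to 22461, of which most was *Cubn*. Markers of both derivatives of PrE were present in the same bulk RNA, and whether the same cells held them was not tested.

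The study had drawn lists of PrE and Epi genes from single cells of blastocysts, not from these samples. Of its 579 PrE genes, 572 were tested here, and 214 were called higher and 2 lower, with 504 higher and 38 lower at any size (median 1.57). Of its 221 Epi genes, 215 were tested, and 6 were called higher and 101 lower, with 16 higher and 188 lower at any size (median -1.87). Calls in the direction of the list name thus covered 37.4% of the PrE and 47% of the Epi genes tested, beside 9.28% and 10.3% of all genes.

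**Figure D4:**
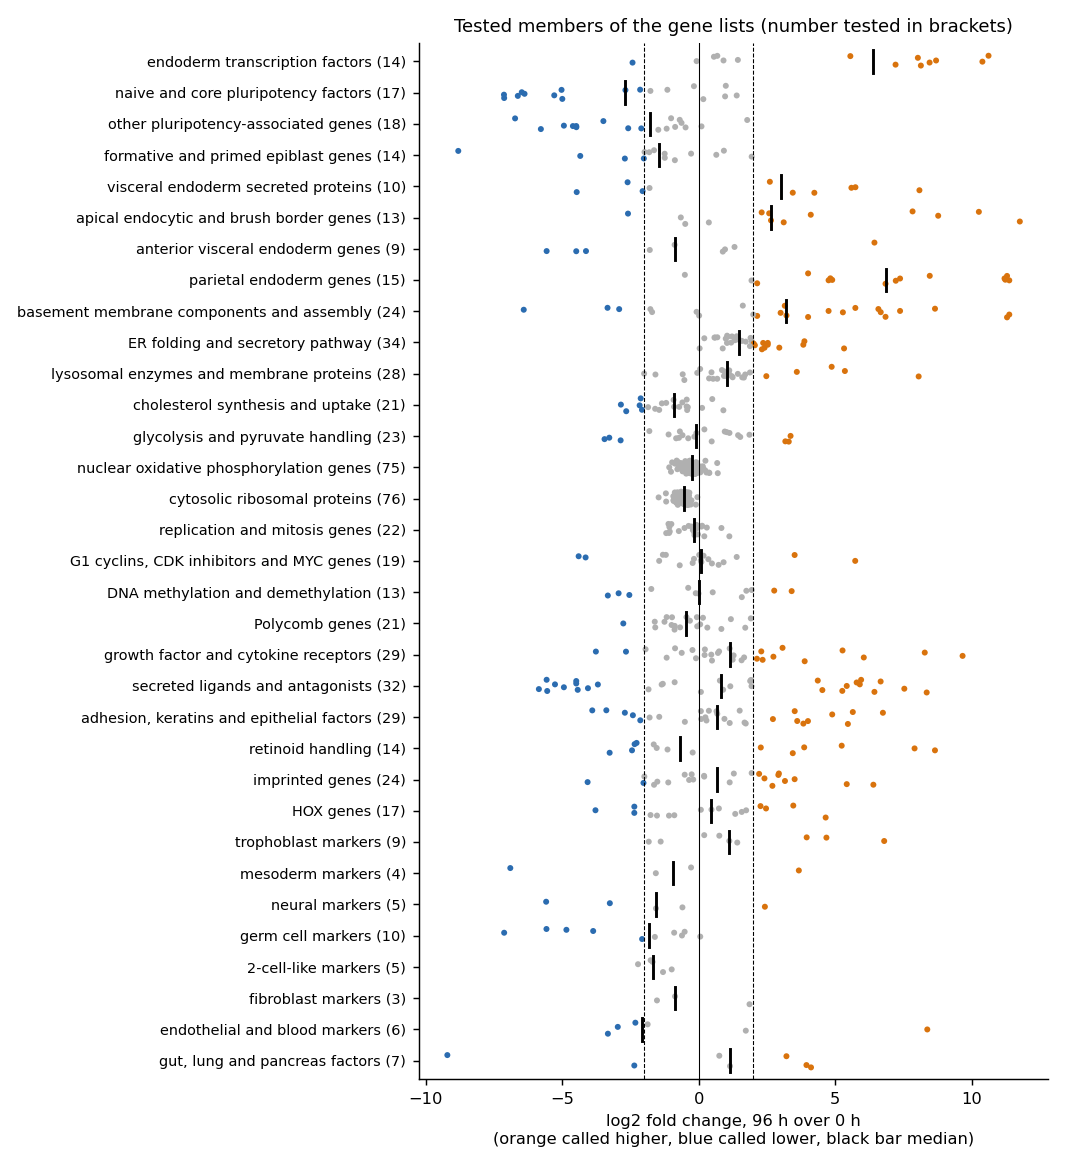
Each point is 1 tested gene of the list named on the left, placed by its log2 fold change, 96 h over 0 h, with the number tested in brackets. Orange points are called higher, blue points called lower, gray points not called, black bars mark the median of a list and dashed lines the 4-fold threshold. Parietal endoderm genes and endoderm factors have medians above 6, and naive pluripotency factors have a median below -2. Ribosomal and oxidative phosphorylation genes have medians of -0.53 and -0.23.

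Receptors for growth factors changed within families. Of 29 growth factor and cytokine receptors tested, 10 were called higher and 2 lower (median 1.13). *Pdgfra*, a classical surface marker of PrE (ENSMUSG00000029231, chr5:75152292-75198215), was at 5.52, 7.47, 7.25 and 7.56 at 0 h and at 6502, 6404, 6487 and 6196 at 96 h (9.66 ± 0.14, adjusted p = 1.26e-30). *Fgfr1* fell from 508, 562, 750 and 795 to 71.1, 48.4, 31.4 and 42.6 (-3.77). The other FGF receptors rose. *Fgfr2* moved from 2.76, 5.44, 11.3 and 9.44 to 523, 468, 495 and 482, *Fgfr3* from 1.38, 2.04, 2.42 and 0 to 670, 689, 753 and 652, and *Fgfr4* from 6.9, 6.79, 6.45 and 7.56 to 305, 265, 311 and 338. *Lifr*, the LIF receptor, rose by 2.74 from 908 ± 132 to 6018 ± 440 (SD, n = 4), and *Erbb3* fell by 2.66 on the log2 scale. Among receptors of the TGF-β family, *Tgfbr3*, *Acvr1*, *Bmpr2* and *Tgfbr2* rose by 3.88, 2.34, 2.29 and 2.13.

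Ligands and antagonists moved in both directions, with 11 of 32 called higher and 10 lower. Genes of NODAL signaling were among those that fell. *Nodal* was at 462, 386, 664 and 678 at 0 h and at 7.43, 12.6, 8.79 and 13.2 at 96 h (-5.57 ± 0.22, adjusted p = 4.74e-20), and its antagonist *Lefty2* fell by 5.85 and the related *Gdf3* by 4.48 on the log2 scale. BMP ligands divided, with *Bmp2* (5.90) and *Bmp6* (7.53) higher and *Bmp4* (-3.69) and *Bmp7* (-4.43) lower. FGF ligands did likewise, with *Fgf3* (5.95) and *Fgf10* (4.36) higher and *Fgf4* (-4.94) and *Fgf17* (-4.06) lower. *Fgf3*, whose promoter is printed above, was at 17.9, 16.3, 11.3 and 22.7 at 0 h and at 1110, 1129, 1014 and 1081 at 96 h. *Ihh*, Indian hedgehog, a signal from visceral endoderm, had 0 reads at 0 h and was at 392, 339, 281 and 298 at 96 h, at least 91.8-fold above the floor. *Wnt4*, *Wnt7b* and *Wnt11* rose by 6.66, 5.78 and 4.53. *Pdgfc* and *Vegfc*, ligands of PDGF and VEGF receptors, fell by 5.26 and 5.55 on the log2 scale, while the receptor genes *Pdgfra* and *Kdr* rose by 9.66 and 3.07.

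Adhesion and cytoskeletal genes of epithelial and of mesenchymal cells each moved in both directions. Of 29 tested, 9 were called higher and 5 lower (median 0.68). Keratins of simple epithelia rose, *Krt8* from 133, 116, 151 and 132 to 6522, 6606, 5124 and 5368 (5.46), *Krt18* by 6.74 and *Krt19* by 5.64. At 2 h *Krt8* and *Krt18* were already at 602 and 604. *Cdh1*, E-cadherin, fell from 4016, 3970, 5586 and 5808 to 906, 916, 894 and 871 (-2.41 ± 0.15, adjusted p = 2.32e-15), and *Cldn4*, a tight junction protein, fell by 3.38 on the log2 scale. *Snai1* and *Zeb2* rose by 4.89 and 3.61, but so did *Esrp1*, a splicing regulator of epithelia, by 3.83. *Itgb1*, the β1 integrin, rose by 2.72 and *Itga6*, the α6 integrin, fell by 2.14 on the log2 scale. *Fn1*, fibronectin, had the largest loss in normalized counts of all genes called lower, from 6660, 10370, 16101 and 17418 to 805, 682, 880 and 811 (-3.90). *Tfcp2l1*, *Spp1*, *Bcat1* and *Pou5f1* followed in that order.

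**Figure D5:**
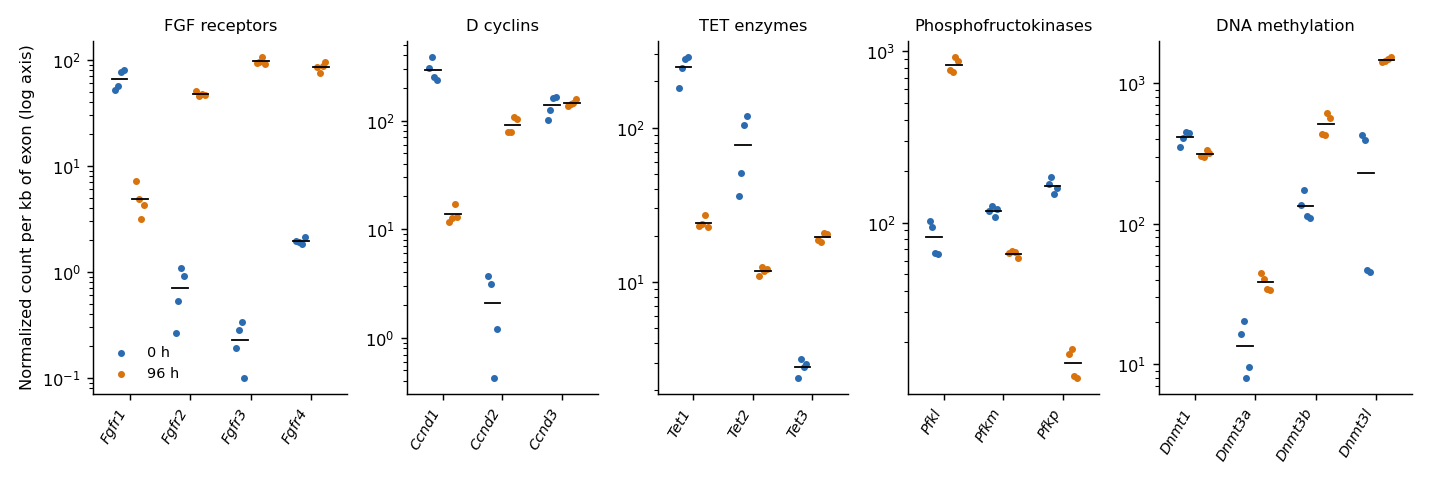
Each point is 1 library and each bar the mean of 4, with the normalized count per kb of exon on a log axis, for 5 small gene families. Blue points are 0 h and orange points 96 h, and the 0 h library of *Fgfr3* with 0 reads is drawn at 0.1. *Fgfr1*, *Ccnd1*, *Tet1*, *Tet2* and *Pfkp* fall, while *Fgfr2*, *Fgfr3*, *Fgfr4*, *Ccnd2*, *Tet3* and *Pfkl* rise.

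Exchange between members of a family was also seen for D cyclins, TET enzymes and phosphofructokinases. *Ccnd1* fell from 1445, 1794, 1189 and 1105 to 55.2, 60, 80.3 and 61.5 (-4.40), *Ccnd2* rose from 34.5, 29.2, 4.03 and 11.3 to 734, 736, 1010 and 962 (5.73), and *Ccnd3* did not pass the test (0.10, adjusted p = 0.505). *Cdk6*, a partner of D cyclins, fell by 4.14 on the log2 scale. *Tet1* fell by 3.33 and *Tet2* by 2.54 on the log2 scale, and *Tet3* rose by 2.77, from 47.2 ± 5.44 to 326 ± 21.2 (SD, n = 4). *Tet2* was called in replicates 3 and 4 and not in replicates 1 and 2. *Pfkp* fell from 2202 ± 210 to 203 ± 40.4 and *Pfkl* rose from 550 ± 126 to 5574 ± 535. *Dnmt3l*, a cofactor of the de novo DNA methyltransferases, was at 1284 and 1178 in replicates 1 and 2 and at 139 and 136 in replicates 3 and 4 at 0 h, and at 4205, 4292, 4437 and 4553 at 96 h. It rose by 3.40, with 1.79 in the first of these sets, where it was not called, and 5.02 in the other. *Dnmt3b* was higher by 1.94 and was called when 0 h replicate 2, 96 h replicate 1 or 96 h replicate 2 was left out. *Zfp57*, which protects imprinted methylation, fell by 2.93 on the log2 scale, and *Phc1* (-2.76) was the Polycomb gene called lower among 21.

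Genes of housekeeping classes moved by less than 4-fold, and the size of the shift depended in part on the scaling. All 76 ribosomal protein genes tested had log2 fold changes between -1.47 and -0.05, with 0 called at the 4-fold threshold (median -0.53). At an FDR below 0.1, 74 of them were lower, and all 76 were lower when scaled by total reads (median -0.80). Their share of normalized counts was 4.09 to 5.72% at 0 h and 2.55 to 2.71% at 96 h. Of 75 nuclear genes of oxidative phosphorylation, 41 were lower and 8 higher at any size (median -0.23). Scaled by total reads instead, the median of all genes shifted to -0.30, 66 of these genes were lower and 2 higher, and 39.7% instead of 47.4% of all calls were rises. The mitochondrial genome held 2.16% of normalized counts at 0 h and 2.14% at 96 h. Among replication and mitosis genes, *Mcm2* to *Mcm7* and *Pcna*, which license or clamp replicating DNA, were all lower by 0.73 to 1.19 on the log2 scale, and also by 0.99 to 1.45 when scaled by total reads. Genes of mitosis in the list had log2 fold changes from -0.52 to 0.30, with 3 of 10 lower and 1 higher at any size, and from -0.78 to 0.03, with 8 lower and 0 higher, when scaled by total reads. This split within the list was drawn after the values were seen.

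Of 21 genes of cholesterol synthesis and uptake, 5 were called lower (*Idi1*, *Msmo1*, *Fdft1*, *Fdps* and *Sqle*), 0 higher, and 18 were lower and 2 higher at any size (median -0.92). Against 2 h instead of 0 h, 2 were called lower. *Msmo1*, a sterol oxidase, fell from 1889 ± 179 to 299 ± 23.1 (SD, n = 4). *Fdps* lost its call without 96 h replicate 4 (-1.97). In glycolysis and pyruvate handling, 3 of 23 were called in each direction. The lactate and pyruvate transporters *Slc16a1* and *Slc16a3* rose by 3.30 and 3.17, and *Ldhb*, the lactate dehydrogenase subunit that favors pyruvate, fell from 1075, 1002, 869 and 829 to 73.2, 84.1, 119 and 116 (-3.27).

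Retinoid genes moved in both directions. Of 14 tested, 6 were called higher and 4 lower. *Cyp26a1*, which degrades retinoic acid, had 0 reads at 0 h and was at 468, 447, 372 and 332 at 96 h, at least 113-fold above the floor. *Stra6*, the receptor for retinol-binding protein, rose from 1.38, 0.68, 0.81 and 1.89 to 427, 392, 646 and 627. *Aldh1a2* and *Aldh1a3*, which make retinoic acid, were called lower at low levels, with means of 19.9 and 85.5 at 0 h and 3.11 and 14.1 at 96 h. *Aldh1a2* lost its call without 96 h replicate 3 (-1.88).

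Imprinted genes moved in both directions, and several differed between the replicate sets. Of 24 tested, 9 were called higher and 2 lower, with 13 higher and 8 lower at any size (median 0.67). Against 2 h, 11 were higher and 10 lower at any size (median 0.19). *Peg3*, a zinc finger gene, rose from 210, 275, 301 and 291 to 2420, 2349, 2548 and 2245. *H19* was at 184 and 159 in replicates 1 and 2 and at 61.5 and 77.5 in replicates 3 and 4 at 96 h, and the neighboring *Igf2* at 82.8, 77.8, 21.3 and 21.8. Both had at most 1 read in each 0 h library. *Cdkn1c*, an inhibitor of cyclin-dependent kinases, was at 540, 557, 61.5 and 79.4 at 96 h, and *Peg10* at 7428, 7221, 1850 and 1696. Calls of *H19*, *Igf2* and *Cdkn1c* held in each set alone, whereas that of *Peg10* held in replicates 1 and 2 only (4.34 against 1.53). *Plagl1* and *Snrpn* were called lower (-4.07 and -2.02), the latter not without 0 h replicate 1 or 2 or 96 h replicate 3 or 4, with values of -1.84 to -1.98. Of 39 HOX genes, 17 passed the filter. *Hoxa10*, *Hoxb4*, *Hoxc9* and *Hoxd8* were called higher and *Hoxb9*, *Hoxb13* and *Hoxc12* lower, none above a mean of 100 in either group. With a pseudocount of 5, *Hoxc9*, *Hoxd8*, *Hoxb9* and *Hoxb13* were not called. *Hoxd8* lost its call without 0 h replicate 2 (1.84).

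Genes of other lineages were mostly at low levels at 96 h. The 4 fibroblast markers *Col1a1*, *Col1a2*, *Twist2* and *Prrx1* had at most 3 reads in every 96 h library, and so did *Ptprc* of blood cells and *Elf5* of trophoblast. Of the wider list of 12 fibroblast genes, 3 passed the filter, with 0 called and 1 higher and 1 lower at any size. The highest log2 fold change among them was 1.86, and in replicates 1 and 2 alone 1 was called higher. *T*, a mesoderm factor, was at 422 and 420 in replicates 1 and 2 and at 56.4 and 39.7 in replicates 3 and 4 at 0 h, and at 1.06, 0, 0 and 0 at 96 h. *Olig2* and *Sox1*, neural factors, fell by 5.59 and 3.25, and *Dazl*, a germ cell gene, by 5.57 on the log2 scale. Of the 5 genes of the 2-cell-like state tested, 0 were called by limma or limma-voom and 0 had an unadjusted p below 0.05. *Zscan4d*, a member of a family of near-identical copies, was at 1.38 and 0.68 in replicates 1 and 2 and at 41.1 and 60.4 in replicates 3 and 4 at 0 h, and at most 2.12 at 96 h. Without 0 h replicate 1 or 2, 3 of the 5 were called lower. Some genes listed for other lineages rose. Called higher were 3 of 9 trophoblast, 1 of 4 mesoderm, 1 of 5 neural, 1 of 6 endothelial and blood, and 3 of 7 gut, lung and pancreas genes tested. In the same order, 0, 1, 2, 3 and 2 were called lower, beside 9.28% higher and 10.3% lower among all genes tested. *Cdh5*, VE-cadherin, went from 0, 0.68, 0 and 0 to 334, 321, 457 and 406 (8.37 ± 0.54, adjusted p = 1.38e-14), whereas *Pecam1*, another endothelial gene, fell from 730 ± 177 to 70.4 ± 4.85. The study scored cells positive for PDGFRA and negative for PECAM to follow differentiation, so *Pecam1* is not only an endothelial marker here. *Plac1* (6.79), *Hand1* (4.68) and *Gata3* (3.95) of trophoblast, *Foxf1* (3.67) of mesoderm, *Nes* (2.42) of neural cells and *Barx1* (4.11), *Nkx6-1* (3.95) and *Pax9* (3.21) of gut and pancreas were called higher, as log2 fold changes. Against 2 h *Foxf1* (1.04) and *Nes* (0.50) were not called, and 2 instead of 3 gut, lung and pancreas genes were called higher. Of *Plac1*, *Hand1*, *Gata3*, *Foxf1*, *Nes*, *Barx1*, *Nkx6-1* and *Pax9*, only *Plac1* and *Nes* exceeded a mean of 100 at 96 h.

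Long intergenic RNAs fell more often than they rose. Of 321 tested, 31 (9.66%) were called higher and 91 (28.3%) lower, with a median of -0.74, beside 10.1% and 10.1% of 13030 protein-coding genes. Their median level was low, 14.9 normalized counts at 0 h and 10.2 at 96 h. The Platr RNAs, named for their link to pluripotency and singled out here after their values were seen, have 30 rows, of which 19 were tested, with 11 called lower, 0 higher, and 17 lower and 1 higher at any size. *Platr10* fell from 941, 874, 725 and 714 to 53.1, 76.8, 67.8 and 51.1 (-3.70), *Platr14* from 813, 761, 762 and 808 to 120, 120, 76.6 and 72.8, and *Platr28* from 44.2, 41.4, 45.1 and 60.4 to 0 in all libraries. *Platr20* was the one higher at any size (1.12).

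The 96 h cells were set beside the 2 h cells, which shared the serum medium and held Dox. Of the genes called higher against 0 h, 1129 (79.9%) were also called higher against 2 h, and of those called lower, 1272 (81.2%) were called lower. The transgene row, *Nppb*, *Rrad*, *Phlda1* and *Rnf128* were higher against 0 h but lower against 2 h. Within the replicate sets, 1191 (84.3%) and 1278 (81.6%) of the calls were made in each set alone. Set beside 48 h, 13 of 15 parietal genes were higher and 0 lower at an FDR below 0.1 and any size (median 1.04), against 27.3% higher and 27.2% lower among all genes. *Thbd* was at 28.7 ± 15.2 at 48 h and 632 ± 70.8 at 96 h (4.56, limma adjusted p = 1.18e-09), and *Plat* at 460 ± 201 and 2558 ± 204 (2.58, adjusted p = 2.90e-09). *Col4a1* was at 56406 ± 20490 and 122854 ± 16966 (1.19, adjusted p = 4.92e-06). Of 13 endocytic and brush border genes, 1 was higher and 7 were lower than at 48 h (median -0.59), with *Cubn* at 27062 ± 11570 and 16994 ± 3876 (-0.59, adjusted p = 0.17) and *Amn* at 929 ± 287 and 462 ± 68.4 (-0.97, adjusted p = 0.0492). *Apoe* fell by 2.33, *Fdft1* by 2.04 and *H19* by 2.74 on the log2 scale from 48 h to 96 h.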

How the data were processed

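Polyadenylated RNA was sequenced from 32 samples (8 time points, 4 replicates each), as single reads of 50 bases, and the 8 samples of 0 h and 96 h are described here. The authors deposited 1 table of log2 values. Per the labels and the study's methods, they trimmed reads with cutadapt 2.7, aligned them with HISAT2 2.1.0 to GRCm38.p6, counted them per gene with featureCounts (Subread 1.6.4) and applied the variance stabilizing transformation of DESeq2. The setting for strand is not given in the sources used here.

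The deposited log2 transformation was inverted to normalized counts. Whole reads were recovered for 100.0% of the values within 0.001. Testing covered genes that reached 10 normalized counts in 4 or more of the 32 samples. A pseudocount of 1 was added, and the log2 of the sum was fitted with limma 3.58.1 (R 4.3.3), using a mean-variance trend and all 32 samples, two-sided, with Benjamini-Hochberg adjustment. This scale understates the change of low genes. Genes were called at FDR below 0.1 and 4-fold, the study's threshold. Depth limits low genes, so a gene with 0 reads in a group was set to a floor of 3 reads per library (a mean of 3.57 normalized counts at 0 h and 3.24 at 96 h), which covers counting error only. The test was also run on simulated data with known changes. Those data had the same spread beyond counting error for every gene, left out low genes and held no difference between replicate sets. The run therefore checks the code and not the error rate in these samples. Summaries and figures used Python 3.11.15 with numpy 2.4.6, pandas 2.3.3 and scipy 1.17.1.

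The comparison and the 33 gene lists were chosen with earlier results of these data known, so counts over lists are descriptions, and no test was made of a list. Named genes are the 10 largest rises and falls whose groups do not overlap and whose higher group has a mean of 100 or more, the 5 largest differences in mean each way, up to 3 called members each way of each list with its first 3 members, and members of lists with counts of 5 or fewer. Other list members are named as examples chosen after their values were seen. Results for a few genes and for 1 planned promoter motif are not reported here. Coordinates and exon lengths are from GENCODE M21 on GRCm38 (54079 of 54233 rows matched), whereas the authors counted on an earlier GENCODE release. Of 29140 rows without a symbol, 29046 were named from a table of identifiers. Alternatives covered pseudocount, filters, scaling, replicate block, samples in the fit, FDR and fold thresholds, limma-voom, the reference group and leaving out replicates.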

Additional observations from a re-analysis of the deposited data

Results flagged for a closer look

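In 291 groups of 4 libraries, each a named gene at 1 time point, 3 held a library that stood apart from the other 3 by Dixon's criterion. Chance alone marks about 1 in 20 such groups. *Bcat1*, a branched-chain amino acid transaminase, was at 717 normalized counts in replicate 3 at 96 h and at 850 to 862 in the others. *Gata4* was at 39.5 in replicate 3 at 0 h and at 19.3 to 22.7 in the others. *Slc16a1* was at 9392 in replicate 4 at 96 h and at 8701 to 8790 in the others. Each of these genes kept its call when that library was left out.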

How the results depend on the processing

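The numbers of genes called higher and lower, 1413 and 1567, stayed within 1.5 times these values under most alternatives. They left this range with a minimum mean of 50 normalized counts, which tests fewer genes (902 and 707), and with a 2-fold threshold (3029 and 3046, and 331 instead of 201 list members). A test against a 4-fold change called 976 and 1005, the latter outside the range. A pseudocount of 5 gave 1159 and 1093, and no filter 1596 and 1853. Leaving out each replicate in turn gave 1396 to 1456 higher and 1569 to 1622 lower. Replicates 1 and 2 alone gave 1493 and 1529, and replicates 3 and 4 alone, both chosen after seeing the data, 1397 and 1725. A replicate block in the fit gave 1413 and 1568. Deviations of same-numbered samples correlated at -0.043 to 0.012, so the numbers did not pair the samples, and the block changed no call of a named gene except *Zscan4d*, then called lower. Scaling by total reads gave 1201 and 1822, limma-voom 1460 and 1662.

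Against 2 h in place of 0 h the counts were 1370 and 1610, and *Pou3f1* (-0.91), *Lefty1* (0.54) and *Mvk* (0.58) had the opposite sign, as did *Tie1* (0.71) in replicates 1 and 2 alone. None of these 4 genes was called, and the cause was not tested. Of 148 named genes called, 119 kept the call under every setting scored for them, and 9 lost it when 1 replicate was left out. The test against a 4-fold change was not scored for named genes. In that test 2 instead of 5 cholesterol genes were called lower. With the higher minimum mean, 141 of the 186 named genes were scored, and the others were not counted as lost. The 119 may thus include genes whose calls fail in these settings. Library depth limits genes near 3 reads, and all values rest on 4 libraries per group in 2 sets. The planned description of N-terminal hydrophobic segments was not run, since no protein sequences were used here.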
